A study of Homo sapiens with 28 samples.

Results

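The genes described here are 38 genes of homologous recombination and of the Fanconi anaemia pathway, read through the chromatin peaks at and near them. A peak belonged to a gene when it overlapped the gene body or the 10 kb on either side of it on GRCh38. All 38 genes had at least 1 such peak, and together they held 204 of the 105048 peaks of the consensus table. RAD51B held 74 of these peaks and FANCC 15, whereas CHEK1, FANCF, FANCD2, FANCI, FANCL, RAD51C and RBBP8 held 1 each. Of the 204 peaks, 42 lay within 1 kb of the start of their own gene, 11 lay at the start of another protein-coding gene, and 151 lay outside gene starts. The genes were picked by name for their function, not by a rule on the measured values. Earlier results of these data were known when they were picked.

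The measurement was ATAC-seq, which counts transposase insertions in open chromatin, in Kuramochi, an ovarian carcinoma epithelial cell line labelled BRCA2-mutant. Every group therefore shares the BRCA2-mutant background, and every group derives from this 1 line. Untreated cells (C) were compared with 7 populations adapted to olaparib, a PARP inhibitor, and sampled under the dose they had adapted to: 5, 10, 20, 40, 80, 160 and 320 uM (T5 to T320). They were also compared with persister cells, which survived 9 days of olaparib at 10 uM (P10) or 320 uM (P320). Each of these 10 groups had 2 libraries of about 50000 cells. C and T cells were sorted on CD24 and CD44, with the T cells taken as CD24 low and CD44 high, while the labels name no sort for P10 and P320. Drug exposure and sort therefore cannot be told apart wherever a P group is compared with C or a T group. The labels do not say whether the duplicates were separate cultures, so the p-values measure the spread between these libraries.

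Homologous recombination copies an intact sister chromatid to mend broken DNA. After ATM and ATR signal the break, MRE11-RAD50-NBN with RBBP8 (CtIP), EXO1 and DNA2 trim the ends. BRCA1-BARD1, PALB2 and BRCA2 then prepare the trimmed end for strand exchange, with help from RAD51B, RAD51C, RAD51D, XRCC2 and XRCC3. The Fanconi core complex marks FANCI-FANCD2 with ubiquitin at DNA crosslinks and feeds the same repair. Cells that lack BRCA2 function depend on other repair routes, such as polymerase theta end joining, and are sensitive to PARP inhibition.

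Library totals in the peaks ran from 9627970 to 29699950 counts, and the 204 peaks held 0.219% to 0.317% of each. In P320 the share of counts at gene starts was 39.9% and 39.2%, against 28.5% to 36.9% in the other 18 libraries. Levels are given as CPM, a peak's count scaled to the size of its library, with library sizes adjusted by TMM (trimmed mean of M-values). The start peaks of all 7 epithelial and all 5 Müllerian markers examined were present. The Müllerian ones summed to 125 to 189 CPM in C, 74.6 to 79.9 in T320, where 4 of the 5 were called lower, and 236 to 238 in P320. The epithelial ones summed to 71.1 to 80.1 CPM in C, 88.4 to 92.9 in T320 and 120 to 121 in P320. They did not move as one in T320, where 1 was called higher and 1 lower, with a median change of -0.31 log2 against C. Among the leukocyte markers examined, 3 had a start peak, while PTPRC and CD3E had none. The summed level of those 3 start peaks was 47.5 to 60.8 CPM in C, 132 to 172 CPM in T320 and 54.0 to 56.2 in P320. Of 6 fibroblast markers 3 had a start peak (33.6 to 42.3 CPM in C, 44.4 to 45.5 in T320, 42.6 to 43.0 in P320), and of 5 endothelial markers 2 (14.9 to 17.4, 12.8 to 14.7 and 14.6 to 15.0). The part of these marker changes in the results was not tested.

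To show the sequences under the start peaks that the results below turn on, the 250 bases upstream of the start are given for 6 genes, 5′ to 3′ on the gene's strand (RefSeq, GRCh38.p14). FANCA (chr16:89816648-89816897, minus strand), FANCE (chr6:35452088-35452337, plus) and XRCC3 (chr14:103715452-103715701, minus) had the called start peaks of P320. RAD54L (chr1:46247438-46247687, plus), FANCD2 (chr3:10026187-10026436, plus) and BRIP1 (chr17:61863529-61863778, minus) moved in the adapted populations. Each window lay wholly inside its gene's start peak. Capitals mark every match on either strand to 7 motifs, listed after the sequences.
FANCA: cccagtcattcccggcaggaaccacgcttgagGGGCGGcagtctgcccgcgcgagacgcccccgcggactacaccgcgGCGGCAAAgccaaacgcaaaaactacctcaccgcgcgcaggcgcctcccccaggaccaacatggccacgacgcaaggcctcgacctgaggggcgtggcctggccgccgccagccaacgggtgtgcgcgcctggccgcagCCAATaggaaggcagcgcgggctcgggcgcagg
FANCE: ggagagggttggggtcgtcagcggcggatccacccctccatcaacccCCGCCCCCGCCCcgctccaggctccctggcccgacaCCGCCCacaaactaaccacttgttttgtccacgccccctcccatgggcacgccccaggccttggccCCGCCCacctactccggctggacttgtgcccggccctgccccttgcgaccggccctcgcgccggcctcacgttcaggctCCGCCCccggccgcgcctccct
XRCC3: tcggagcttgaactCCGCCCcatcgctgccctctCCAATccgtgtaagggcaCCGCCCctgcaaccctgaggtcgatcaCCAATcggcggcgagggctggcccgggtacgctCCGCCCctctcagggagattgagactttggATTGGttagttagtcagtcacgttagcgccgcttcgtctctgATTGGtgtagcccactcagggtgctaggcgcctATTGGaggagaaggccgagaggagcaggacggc
RAD54L: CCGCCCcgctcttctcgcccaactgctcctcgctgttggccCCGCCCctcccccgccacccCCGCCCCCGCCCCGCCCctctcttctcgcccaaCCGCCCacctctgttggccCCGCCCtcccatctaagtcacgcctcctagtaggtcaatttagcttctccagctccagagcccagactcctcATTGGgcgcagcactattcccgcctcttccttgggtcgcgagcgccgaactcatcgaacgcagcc
FANCD2: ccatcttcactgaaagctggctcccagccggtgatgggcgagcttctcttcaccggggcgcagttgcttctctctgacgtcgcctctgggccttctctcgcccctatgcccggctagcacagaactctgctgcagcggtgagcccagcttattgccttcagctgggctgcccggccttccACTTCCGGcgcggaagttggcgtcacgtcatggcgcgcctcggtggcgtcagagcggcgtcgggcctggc
BRIP1: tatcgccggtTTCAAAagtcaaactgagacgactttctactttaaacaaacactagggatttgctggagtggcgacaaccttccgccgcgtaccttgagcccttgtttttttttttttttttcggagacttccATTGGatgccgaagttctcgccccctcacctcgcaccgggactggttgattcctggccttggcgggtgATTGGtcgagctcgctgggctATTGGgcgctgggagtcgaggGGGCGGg

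The motifs were E2F (TTTGGCGC, TTTCCCGC, TTTCGCGC or TTTGCCGC), ETS (CCGGAAGT), NRF1 (its usual palindrome, read without mismatch), the CCAAT box (CCAAT), SP1 (GGGCGG), CHR (TTTGAA) and AP-1 (TGANTCA). FANCA carried 1 match each to E2F, CCAAT and SP1, with the E2F match at -172 to -165 from the start. FANCE carried 5 SP1 matches and no other, and XRCC3 carried 5 CCAAT and 3 SP1 matches. RAD54L carried 7 SP1 matches, of which 1 overlaps its neighbour by a base, and 1 CCAAT match. FANCD2 carried only 1 ETS match, at -70 to -63, and BRIP1 carried 3 CCAAT matches, 1 SP1 and 1 CHR match. Over the 33 of the 38 genes with an entry in the promoter table, SP1 matched in 23 genes (69.7%), against 62.1% of the 15843 protein-coding genes with an entry. CCAAT matched in 15 (45.5% against 40.2%) and CHR in 4 (12.1% against 14.2%). ETS matched in 7 genes (21.2% against 5.82%), E2F in 2 (6.06% against 4.6%), NRF1 in 1 (3.03% against 1.72%) and AP-1 in 0 (against 7.09%). Where a gene had several listed starts, a match at any of them was counted. These matches describe the letters of the windows and say nothing about binding.

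Over the comparisons with C, a smaller share of the start peaks than of the peaks further away changed by 2-fold or more, as at all protein-coding genes. A peak is called gained or lost here when its change passed a Benjamini-Hochberg adjusted p of 0.05 over all peaks in edgeR's quasi-likelihood test and was at least 2-fold. "Rose" and "fell" are used for a change past the adjusted p, whatever its size. Over the 9 comparisons with C, 5 of the 42 start peaks (11.9%) were called in at least 1, against 34.3% of the 15421 start peaks of all protein-coding genes. Outside gene starts, 102 of 151 peaks (67.5%) were called at least once, against 59.8% of such peaks near any protein-coding gene. Without RAD51B that count was 45 of 79 (57.0%). In 7 of the 204 peaks the gain (3.43%, against 1.68% of all peaks), and in 4 the loss (1.96% against 2.39%), was called in all 7 adapted populations.

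In T320 against C, 54 of the 204 peaks were called, 30 gained and 24 lost (26.5%), where 30.5% of all peaks were called. None of the 42 start peaks was among them, against 11.9% of all start peaks. By the adjusted p alone 11 passed (31.5% of all start peaks did), and by an unadjusted p under 0.05 16 did (6191 of all 15421). In the C and T groups same-numbered libraries deviated together. Depth split by replicate number there, with 9627970 to 15526256 counts in replicate 1 and 19092182 to 28547221 in replicate 2. The part of depth in the shared deviation was not tested. With the replicate number as a block 17 start peaks passed in T320, 10 up and 7 down, where 44.5% of all start peaks did, and still none was called. Over the 7 adapted populations the block brought 46 start-peak changes past the adjusted p and removed 0. This was not particular to these genes, since the share of all start peaks that passed grew too, for T320 from 31.5% to 44.5%. For T5 it was 13.6% under the block, against 974 of 15421 without it. The T40 share was 47.6%, against 4928 of 15421. Values below are from the fit without the block unless it is named. Outside gene starts 54 of 151 (35.8%) were called, against a background of 33.0%. At 5 uM the calls numbered 16 where 9.19% of all peaks were called, and at 10 uM 30 where 17.7% were. T20 had 53 calls (background 24.5%), T40 52 (25.2%), T80 52 (26.0%) and T160 58 (23.5%). These populations share the C libraries. In P320 against C 18 peaks were called (8.82%, background 11.8%), and in P10 against C 40 (19.6%, background 22.1%).

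**Figure D1:**
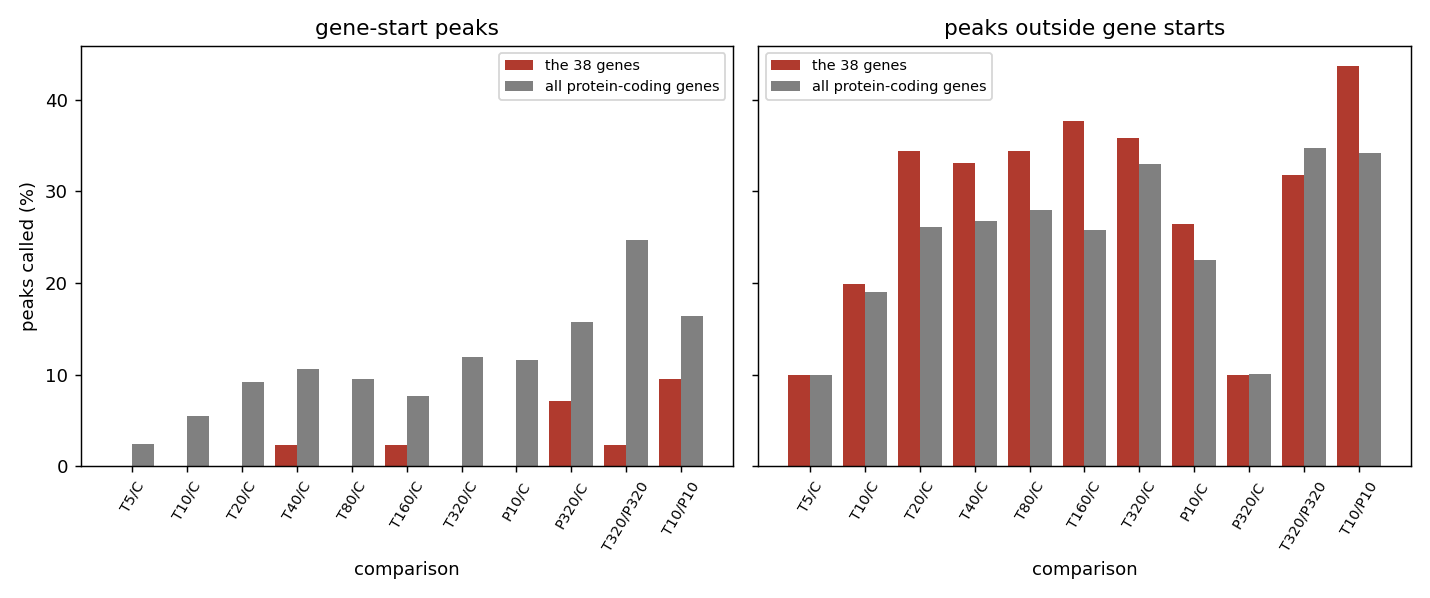
Percent of peaks called in each comparison, for the 38 genes (red) and for all protein-coding genes (grey), at gene starts (left, 42 member peaks) and outside gene starts within 10 kb of a gene (right, 151 member peaks). Bars start at 0. The red bars at gene starts lie below the grey ones throughout, and 6 of the 9 comparisons with C have none, while outside gene starts the red bars lie between 9.93% and 43.7%.

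The direction of these counts depended on how libraries were centred. With the median shift of all peaks in the same 5 Mb window removed from each library, the split in T20 went from 43 gained and 10 lost to 19 and 22. T5 then had 6 gained and 7 lost (10 and 6 without the step), T10 had 14 and 13 (22 and 8), T40 had 20 and 22 (37 and 15), T80 had 24 and 21 (38 and 14), and T160 had 28 and 19 (42 and 16). In T320 it gave 27 and 27 in place of 30 and 24. With TMM factors taken from gene-start peaks alone, the split was 11 and 4 in T5, 31 and 14 in T20, 26 and 16 in T160 and 29 and 23 in T320. That scaling moved the median of all peaks from 0.01 to -0.17 in T20 against C and from -0.11 to -0.61 in P320 against C, on the log2 scale.

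At the BRCA complexes, which act on trimmed ends, BRCA1 rose in every adapted population from T10 to T320. The peak at the BRCA1 start itself (chr17:43124388-43125930) read 16.8 and 20.5 CPM in C, 25.6 and 26.5 in T5, 32.9 and 34.1 in T160 and 24.1 and 31.1 in T320. Every T library lay above both C libraries, and P10 (15.1 and 16.3) lay below them. The log2 fold change was 0.84 ± 0.2 (SE) in T160 (adjusted p = 0.004) and 0.57 ± 0.2 in T320 (adjusted p = 0.032), both short of 2-fold. A second BRCA1 start peak, 45 kb further out and shared with the start of NBR1, was the stronger of the pair and rose in T10 to T160, with 0.42 ± 0.2 in T320 (adjusted p = 0.097, or 0.017 with the replicate block). BRCA2, the gene mutated in this line, read 29.5 and 39.8 CPM in C, 21.3 and 30.6 in T320, and 36.6 and 35.5 in P320. Its T320 libraries overlapped those of C (log2 -0.41 ± 0.22, adjusted p = 0.14), and none of the 9 comparisons with C passed the test. With the replicate block BRCA2 fell in T40, T80 and T320 (-0.41, adjusted p = 0.039). PALB2, which bridges BRCA1 and BRCA2, read 24.9 and 30.2 CPM in C and 21.9 and 24.6 in T320 (-0.25 ± 0.17, adjusted p = 0.25). BARD1, the partner of BRCA1, read 37.5 and 57.9 in C and 39.0 and 48.8 in T320 (-0.12 ± 0.22, adjusted p = 0.68), with the T320 values inside the range of C.

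RAD51B, RAD51C, RAD51D, XRCC2 and XRCC3, which work together in strand exchange, did not move as one. RAD51B rose from 12.8 and 15.6 CPM in C to 24.2 and 31.7 in T20 and 19.3 and 26.7 in T320 (0.70 ± 0.23, adjusted p = 0.021), with every library from T10 to T320 above C. RAD51C read 8.21 and 10.4 in C, 14.7 and 19.3 in T160 (0.86 ± 0.25, adjusted p = 0.012) and 11.7 and 16.4 in T320 (0.60 ± 0.25, adjusted p = 0.059, or 0.011 with the replicate block). RAD51D is a weak peak, at 2.3 and 4.2 CPM in C, and it was called gained in T40, at 6.6 and 7.24 CPM (1.06 log2). It rose again in P320, to 6.49 and 6.69 CPM (0.99 ± 0.27, adjusted p = 0.015), with all T40 and P320 libraries above both C libraries. XRCC2 went the other way in T320, from 18.6 and 23.6 CPM to 14.9 and 14.6 (-0.53 ± 0.17, adjusted p = 0.018). Its T5 libraries, at 24.7 and 25.7, were above C, and it was the only one of the 42 start peaks to pass the adjusted p in the dose trend, at -0.13 log2 units per doubling. XRCC3 read 19.8 and 36.5 CPM in C, 47.5 and 59.2 in T20, where it rose (0.91), and 27.1 and 35.0 in T320, inside the range of C (0.13 ± 0.24, adjusted p = 0.69).

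Among the helicases, BRIP1 (FANCJ), which works with BRCA1, was the only one of the 42 start peaks to pass the adjusted p in all 7 adapted populations. With the replicate block both BRCA1 start peaks and RAD54L did so too. BRIP1 rose from 14.6 and 18.1 CPM in C to 25.5 and 25.5 in T5, 32.6 and 34.2 in T160 and 22.4 and 28.0 in T320. All 14 T libraries exceeded both C libraries. The T160 change was called gained (1.03 ± 0.2, adjusted p = 0.00071) and the T320 change was 0.62 ± 0.2 (adjusted p = 0.016), while P10, at 14.1 and 11.4, lay below C. The start peaks of BLM and WRN, both RecQ helicases, passed the test in none of the comparisons with C, except BLM in T160 with the replicate block (0.51, adjusted p = 0.0099).

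The Fanconi core genes split by population. FANCE rose in 3 adapted populations, among them T320, from 11 and 16.1 CPM in C to 17.8 and 22.5 (0.57 ± 0.22, adjusted p = 0.041). FANCM, a translocase that anchors the core complex, rose in T20, T40 and T80 at both of its start peaks. FANCG fell in T5, from 34.5 and 50.6 to 20.4 and 25.9 CPM (log2 -0.88), and passed the test in no later population without the replicate block. With it FANCG also fell in T10, T160 and T320 (-0.52, adjusted p = 0.0058). FANCC, FANCF and FANCL (the ubiquitin ligase subunit) passed in none, though with the block FANCC rose in T80 (0.46, adjusted p = 0.044) and FANCF fell in T40 (-0.39, adjusted p = 0.047). FANCD2, the substrate that the core complex marks, rose from 7.22 and 7.78 CPM in C to 12 and 13.8 in T320 (0.78 ± 0.21, adjusted p = 0.0056), with no overlap, and its partner FANCI rose in T20 to T80 only (0.31 ± 0.19 in T320, adjusted p = 0.21).

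The falls in T320 were at 4 start peaks, including XRCC2. RAD54L, a DNA motor of strand exchange, went from 52.4 and 67.0 CPM in C to 30.7 and 33.5 in T320 (-0.90 ± 0.19, adjusted p = 0.0011). It fell in all adapted populations except T10, there too with the replicate block (-0.51, adjusted p = 0.011), and also in P10, at 30.3 and 38.4, whereas P320 (54.8 and 47.6) was not apart from C. GEN1, which cuts Holliday junctions, went from 19.5 and 31.1 to 11.9 and 15.8 CPM (-0.87 ± 0.26, adjusted p = 0.01), and EXO1, a resection nuclease, from 27.7 and 35.8 to 20.9 and 20.7 (-0.62 ± 0.21, adjusted p = 0.022). RAD52, a strand annealing protein, rose at both start peaks in T320 (0.54 ± 0.2, adjusted p = 0.036, at the one by rule). POLQ, the end joining polymerase, read 17.4 and 24.5 CPM in C and 11.9 and 19.4 in T320, with overlap (-0.41 ± 0.22, adjusted p = 0.14). ATM, whose start peak is shared with NPAT, read 52.2 and 73.3 in C and 48.3 and 62.0 in T320 (-0.19 ± 0.21, adjusted p = 0.51), and it fell in P10, to 38.5 and 38.1 (-0.71). No start peak of the 4 checkpoint kinases passed in T320, where CHEK2 read 0.34 log2 (adjusted p = 0.23). With the replicate block CHEK2 rose in T20 to T160, and ATM in T20, T40 and T80.

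The remaining start peaks passed in few comparisons with C. MRE11, the nuclease that starts resection, read 33.9 and 46.6 CPM in C and fell in P10, to 24.9 and 19.5 (-0.86), while its second start peak, shared with C11orf97, rose in T5 and in T20 to T160. In T320 the block brought both past the test, at -0.48 (adjusted p = 0.022) and 0.49 (adjusted p = 0.042). CHEK1, the kinase downstream of ATR, rose in T20 (0.52), and MUS81, a nuclease whose start peak is shared with CFL1, rose in T80 (0.50). ATR, RAD50, NBN, RBBP8, DNA2 and RAD54B passed in none of the 9. Many of these starts are shared with a divergent neighbour, so that a peak there belongs to both genes.

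**Figure D2:**
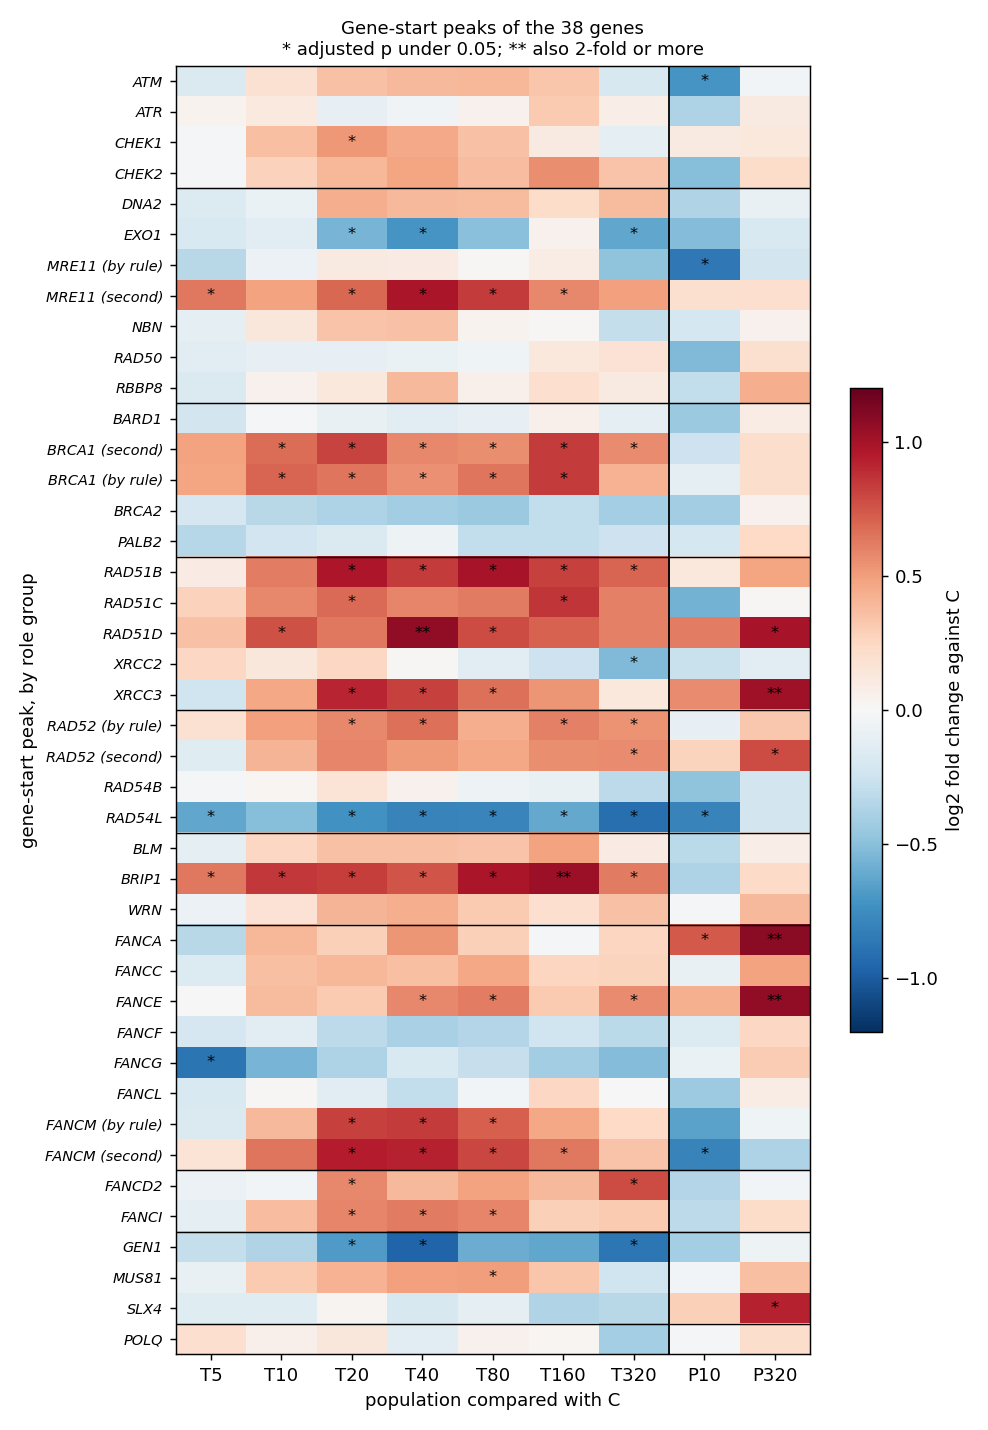
Heat map of log2 fold change against C at the 42 gene-start peaks (rows, by role group from kinases at the top to polymerase theta at the bottom) in 9 populations (columns, with a line between adapted and persister populations). Red is higher and blue lower than C, 1 star marks an adjusted p under 0.05 and 2 stars also a change of at least 2-fold. BRIP1 is red in all 7 adapted columns and RAD54L blue in all 7, and the 2-star cells are RAD51D in T40, BRIP1 in T160, and FANCA, FANCE and XRCC3 in P320.

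The start peaks followed the other peaks of their chromosome region. For each gene the median log2 change of all other peaks in the same 5 Mb window was set beside its start peak. In T320 the RAD54L window moved by -0.80 and its start by -0.90, the GEN1 window by -0.94 and its start by -0.87, and the FANCD2 window by 0.68 and its start by 0.78. On chromosome 17 the windows of BRCA1, BRIP1 and RAD51C moved by 0.58, 0.51 and 0.36 in T160, beside 0.84, 1.03 and 0.86 at the starts. In T5 the FANCG window moved by -0.91 and its start by -0.88. Over the 38 genes, which lie in 38 different windows, the start and the window had the same sign in 37 in T320 (Pearson r = 0.88) and in 22 in P320 (r = 0.55). The r is a description across genes that share the same libraries. With the window shift removed from each library, 1 start peak passed the adjusted p in T320 in place of 11, and none was called. Under it GEN1 read 0.11, RAD54L -0.07 and FANCD2 0.06 log2 in T320. What moves whole windows, such as DNA copy number or broad chromatin state, was not measured apart, and its part in these start-peak values was not tested.

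**Figure D3:**
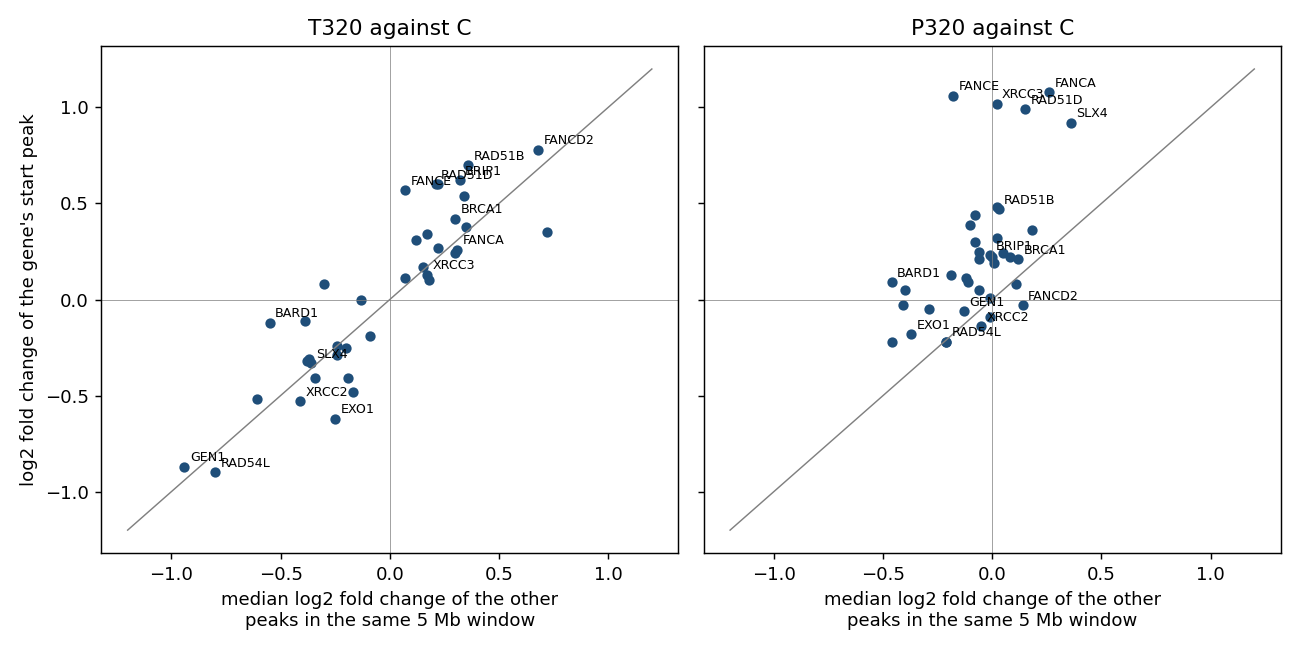
Log2 fold change of each gene's start peak (vertical) against the median log2 fold change of the other peaks in its 5 Mb window (horizontal), for 38 genes in T320 and P320 against C, with the line of equal values in grey. In T320 the points lie along the line from GEN1 and RAD54L to FANCD2. In P320 most points lie above it, FANCE, XRCC3, RAD51D, FANCA and SLX4 the furthest, with BARD1 and RBBP8 close to SLX4.

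In persister cells at 320 uM 3 of the 42 start peaks were called, all gained (7.14%, where 15.8% of all start peaks were called and 14.9% were called gained). By adjusted p alone 6 rose and 0 fell, where 32.0% of all start peaks rose. FANCA, the large scaffold subunit of the core complex, went from 10.3 and 15.8 CPM in C to 28.6 and 27.2 (1.08 ± 0.24, adjusted p = 0.0049). FANCE, which contacts FANCD2, went from 11 and 16.1 to 29.2 and 27.9 (1.06 ± 0.21, adjusted p = 0.0022), and XRCC3 from 19.8 and 36.5 to 58.1 and 56.6 (1.02 ± 0.24, adjusted p = 0.007). In all 3 both P320 libraries exceeded every C and T320 library. SLX4, a scaffold for nucleases whose start peak is shared with DNASE1, went from 14.3 and 18.9 to 32.8 and 30.2 CPM (0.92 ± 0.21, adjusted p = 0.0057), and RAD51D and the second RAD52 start peak rose too. The windows of FANCE and XRCC3 moved by -0.18 and 0.02, those of FANCA and SLX4 by 0.26 and 0.36. With the window shift removed from each library, FANCA read 0.78 (adjusted p = 0.11) and XRCC3 0.92 (adjusted p = 0.064). Only 1 start peak then passed the adjusted p, in place of 6, while the median of the 42 start peaks was 0.23 log2 in place of 0.20. The share of all start peaks that passed under this step is not given here. The start peaks of BRCA1, BRCA2 (0.05 log2, adjusted p = 0.89), PALB2, BARD1, RAD51B (0.47, adjusted p = 0.17), RAD51C, XRCC2 (-0.14, adjusted p = 0.61), ATM, FANCD2 and POLQ did not pass in P320. In P10 against C none of the 42 start peaks was called, where 11.6% of all start peaks were. By adjusted p alone 1 rose and 4 fell, where 3683 of all 15421 rose and 1190 fell. The median of the 42 was -0.28 log2, against 0.15 for all start peaks.

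These P320 gains stood beside the larger share of counts at gene starts in the P320 libraries. With TMM factors from gene-start peaks alone, FANCA read 0.60, FANCE 0.58 and XRCC3 0.55 log2, none called, and the median of the 42 start peaks moved from 0.20 to -0.29. Under that scaling 4 start peaks rose and 17 fell, in place of 6 and 0. All member calls went from 5 gained and 13 lost to 1 and 45, where 23.8% of all peaks were called. Total-count scaling gave 2 gained and 16 lost, where 12.1% of all peaks were called. FANCE (1.0, just short of 2-fold) and XRCC3 (0.96) were not called under it. Without C replicate 1, FANCA, FANCE and XRCC3 read 0.82, 0.83 and 0.65 and 10 peaks were called in all, and without P320 replicate 1 only 6.

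Set against each other, T320 and P320 differed at 52 of the 204 peaks (25.5%, background 34.2%), 35 higher and 17 lower in T320. The split was 68 and 7 with TMM factors from gene-start peaks and 26 and 27 with the window shift removed. At the starts 1 peak was called, that of SLX4, at 10.4 and 15.9 CPM in T320 against 32.8 and 30.2 in P320 (-1.25 ± 0.22, adjusted p = 0.00011), where 24.7% of all start peaks were called. XRCC3 (-0.88 ± 0.24, adjusted p = 0.0058), FANCA (-0.82 ± 0.24, adjusted p = 0.0095), PALB2 (-0.48 ± 0.16, adjusted p = 0.022) and POLQ (-0.62 ± 0.22, adjusted p = 0.023) were lower in T320, and FANCD2 was higher (0.81 ± 0.21, adjusted p = 0.0032). BRCA1, BRCA2 (-0.47, adjusted p = 0.088), BARD1, RAD51B, RAD51C (0.59, adjusted p = 0.054), RAD51D, XRCC2 (-0.39, adjusted p = 0.065) and ATM did not pass. The direction at the starts depended on the scaling. With TMM factors from gene-start peaks 3 start peaks were called, all higher in T320, and SLX4 was not among them. By adjusted p 19 were then higher and 3 lower, in place of 2 and 9, and their median moved from -0.21 to 0.24. With the window shift removed no start peak was called, and 3 passed, all lower, while the median of the 42 was -0.2. At the matched 10 uM dose, T10 and P10 differed at 73 of the 204 peaks (35.8%, background 32.9%), 57 higher in T10 and 16 lower. With the window shift removed 38 were higher and 18 lower. The 4 start peaks called there were BRIP1 (26.7 and 32.6 against 14.1 and 11.4 CPM, 1.22 ± 0.2, adjusted p = 9.6e-05), RAD51C (1.15 ± 0.25, adjusted p = 0.0011) and the 2 of FANCM, where 16.4% of all start peaks were called. With the window shift removed no start peak was called there, and 4 passed the adjusted p in place of 12. The median of the 42 start peaks was then 0.34 log2 in place of 0.37. Between the persisters, P320 and P10 differed at 18 peaks (8.82%, background 13.8%), 5 higher and 13 lower in P320, none at a start (2.44% of all start peaks were called). By adjusted p alone 8 start peaks rose, where 10.0% of all did, and 20 passed an unadjusted p under 0.05, where 5354 of all 15421 did. TMM factors from gene-start peaks gave 2 and 16.

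Further from the starts single peaks moved by far more. CHEK2, the effector kinase of ATM, had a peak 8.93 kb upstream of its start (chr22:28750175-28751343), inside the neighbouring gene HSCB. It read 1.4 and 0.801 CPM in C, 3.91 and 2.78 in T5, 8.07 and 10.8 in T20, 6.68 and 7.39 in T320, 0.529 and 0.523 in P10, and 0.141 and 0.26 in P320. All T libraries were above C and all P libraries below it. The peak was gained in all 7 adapted populations (2.74 ± 0.36 in T320, adjusted p = 1.1e-05) and lost in P320 (-2.36 ± 0.49, adjusted p = 0.0026), so that T320 exceeded P320 by 5.10 ± 0.41 (34.3-fold, adjusted p = 1e-07). A second CHEK2 peak, 31.1 kb into the gene (chr22:28710193-28711190), read 3.28 and 1.79 CPM in C, 3.77 and 3.76 in T320 and 0.176 and 0.817 in P320 (-2.31 ± 0.58, adjusted p = 0.009). A peak beside it, 29.4 kb in, was gained in T10 to T320 (1.91 in T320, adjusted p = 0.00032) and in P10. The P320 loss at 31.1 kb was no longer called without P320 replicate 1 (-1.55) or without C replicate 1 (-1.85).

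ATM held peaks that went in opposite directions. The one 101 kb into the gene (chr11:108324295-108325299), inside C11orf65 as well, read 1.64 and 0.896 CPM in C, 2.26 and 2.42 in T10, 4.7 and 4.85 in T40 and 8.9 and 10.7 in T320. P320 read 0.459 and 0.446, below both C libraries. The change was 3.0 ± 0.35 in T320 (adjusted p = 3.6e-06), -1.42 ± 0.4 in P320 (adjusted p = 0.018) and 4.42 ± 0.37 between them (21.4-fold, adjusted p = 1.3e-07). The peak 55.7 kb into the gene (chr11:108278299-108279720) fell instead, from 15.8 and 21.9 CPM in C to 3.08 and 2.78 in T320 (-2.70 ± 0.27, adjusted p = 1e-06). It was lost in T40 and T80 but not in T160, at 9.35 and 13.2, and read 7.41 and 7.02 in P10.

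Among the helicase genes 9 of the 12 peaks outside starts were called in T320, 5 gained and 4 lost, where 33.0% of peaks outside gene starts near all protein-coding genes were called. WRN, an exonuclease as well as a helicase, had a gene body peak at 3.12 and 1.74 CPM in C, between 1.58 and 3.4 in all libraries from T5 to T160, and 10.8 and 14.2 in T320 (2.40 ± 0.34, adjusted p = 2.6e-05). P10 also exceeded C there, at 6.75 and 6.45 CPM. The other peaks of the WRN window moved by a median of 0.72 in T320, and the peak read 1.64 with the shift of all peaks in the window removed. Another WRN peak went from 4.92 and 6.84 CPM in C to 1.71 and 0.627 in T320 (-2.41 ± 0.65, adjusted p = 0.0062) and was lost in all 7 adapted populations and in P10. The T320 call did not hold without T320 replicate 2 (-1.78), nor the T5 call (-2.67) without either T5 library or without C replicate 2. Nor did it hold in T10 without T10 replicate 2 (-2.53), in T20 without T20 replicate 2 (-2.06) or in T160 without T160 replicate 1 (-2.06).

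BLM, which dissolves joined recombination intermediates, lost 3 peaks inside the gene. The one 48.5 kb in (chr15:90765068-90766548) went from 7.14 and 11.9 CPM in C to 2.31 and 0.762 in T320 (-2.73 ± 0.49, adjusted p = 0.00023) and was lost in all 7 adapted populations and P10. The one 72.7 kb in (chr15:90789270-90790726) fell to 3.17 and 0.672 (-2.04 ± 0.55, adjusted p = 0.0056), a call that rests on T320 replicate 2 (-1.21 without it), and the P320 value (-1.86 ± 0.52, adjusted p = 0.017) was not called without either P320 library or without C replicate 1. The one 7.38 kb in (chr15:90724298-90725158) fell to 1.8 and 0.807 CPM from 5.01 and 4.76 (-1.98 ± 0.4, adjusted p = 0.00066). Upstream, 10.7 kb from the start (chr15:90705872-90707446) and inside CRTC3-AS1, a peak rose from 4.43 and 3.91 CPM in C to 14.5 and 14.1 in T320 (1.78 ± 0.22, adjusted p = 6.7e-06), whereas P10 had fallen to 1.63 and 1.83.

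DNA2, XRCC2 and FANCA each had a peak that was called lost in adapted populations and in neither persister population. DNA2, a resection nuclease, had a gene body peak (chr10:68427533-68429116) at 7.63 and 13.5 CPM in C, 1.24 and 0.704 in T10, 2.57 and 1.52 in T320 and 14.4 and 13.8 in P320. All 14 T libraries were below C, the T320 change was -2.42 ± 0.5 (adjusted p = 0.0007) and T320 against P320 gave -2.83 ± 0.49 (adjusted p = 0.00013). XRCC2 had a peak 17.6 kb into the gene (chr7:152657996-152659043) at 7.96 and 10.6 CPM in C, 3.85 and 2.15 in T320 (-1.68 ± 0.33, adjusted p = 0.00048) and 12.8 and 11.1 in P320, lost in all 7 adapted populations. FANCA had one 38.2 kb in (chr16:89777934-89779019) at 6.48 and 10.7 in C, 4.97 and 2.15 in T320 and 10.9 and 11.8 in P320 (T320 against P320 -1.72 ± 0.42, adjusted p = 0.0025, but -1.19 and not called without T320 replicate 2). GEN1 lost a weak peak 26.6 kb in (chr2:17780451-17781066), which read 2.05 and 2.17 CPM in C and 3.14 and 2.99 in T5, then 0.583 or less in all libraries from T10 to T320 except 0.7 in T40 replicate 1. It also fell in P320, to 0.494 and 0.446 (-2.15 ± 0.57, adjusted p = 0.012), but not in P10 (2.43 and 2.18). The P320 call did not hold without P320 replicate 1 (-2.19), P320 replicate 2 (-2.04) or C replicate 2 (-2.11).

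Other peaks stood apart in persister cells. RAD54L had a peak 8.79 kb upstream (chr1:46238367-46239439) at 4.68 and 2.03 CPM in C, between 0.612 and 3.21 in all T libraries, 1.69 and 1.93 in P320, and 19.1 and 19.6 in P10. P10 exceeded C by 2.56 log2, and T10 read -3.09 ± 0.49 against P10 (adjusted p = 8.5e-05). BRCA1 had a peak 6.23 kb into the gene (chr17:43118680-43119580) at 2.05 and 2.12 CPM in C, 4.99 and 6.79 in T160, 0.441 and 0.479 in P10 and 0.318 and 1.04 in P320 (-1.62 ± 0.51, adjusted p = 0.033). The P320 call did not hold without P320 replicate 1 (-0.96) or without either C library.

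**Figure D4:**
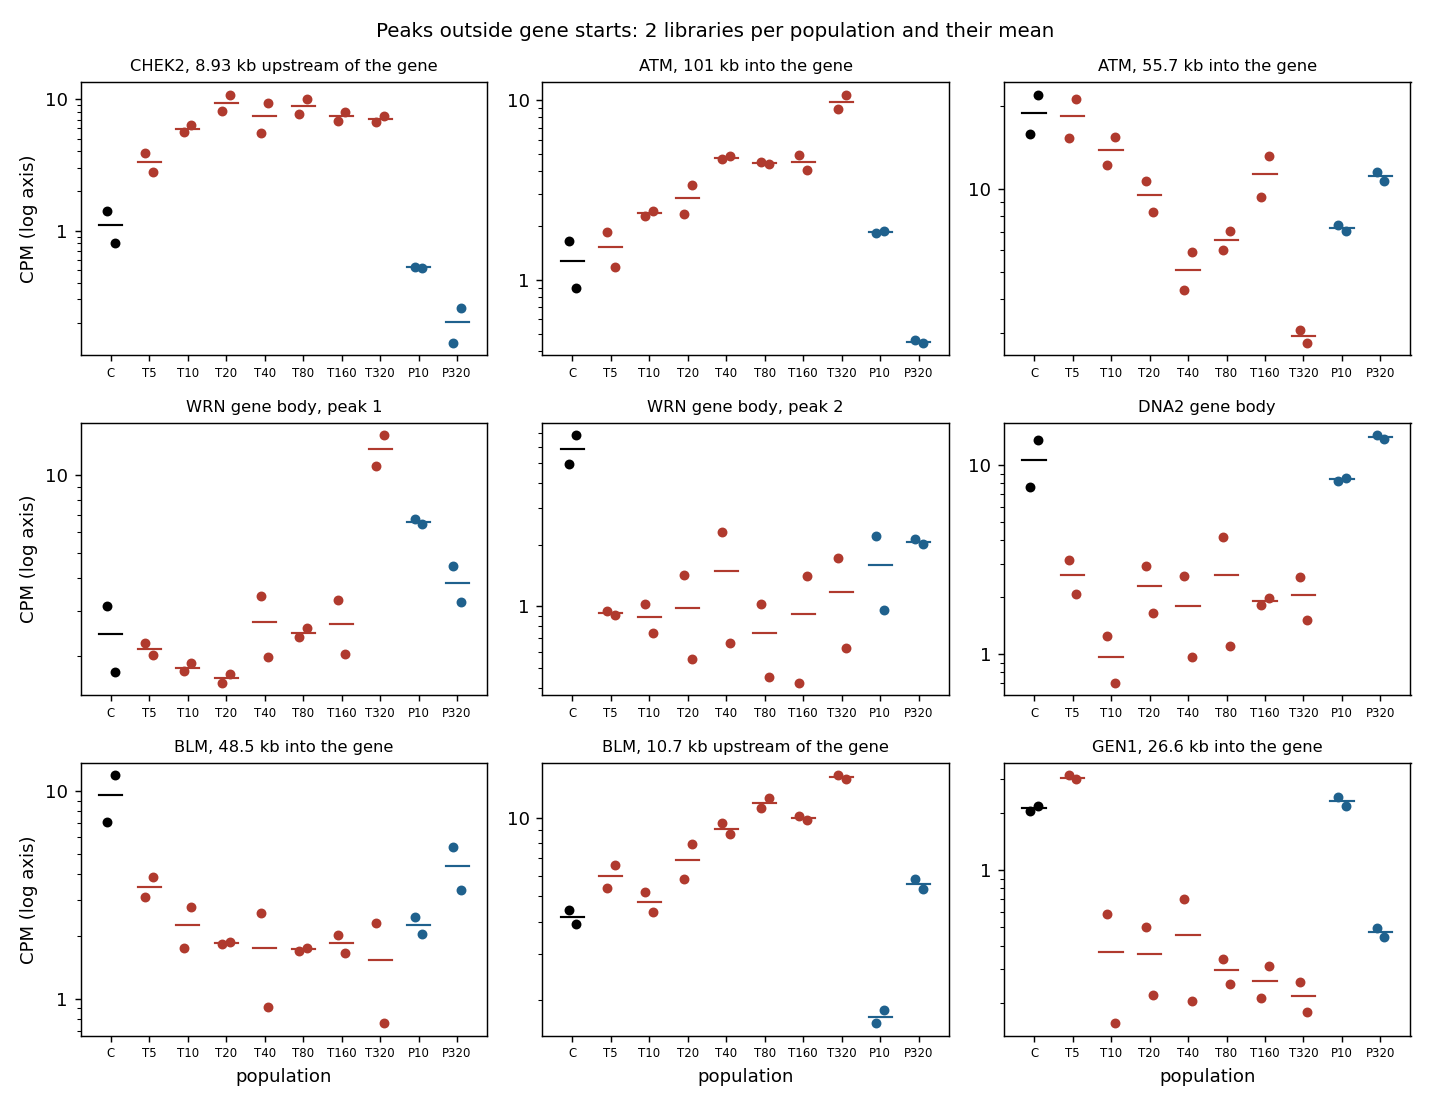
CPM (log axis) in each of the 2 libraries of 10 populations (points, with the mean as a bar) at 9 peaks of CHEK2, ATM, WRN, DNA2, BLM and GEN1. C is black, adapted populations red and persisters blue. The CHEK2 peak reads 2.78 CPM or more in every T library and 1.4 or less in every C and P library, and WRN peak 1 stands at 10.8 and 14.2 CPM in T320.

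RAD51B, the longest of these genes, supplied 72 of the 151 peaks outside gene starts. Its 74 peaks summed to 491 and 551 CPM in C, 813 and 1019 in T20, 579 and 748 in T320, 436 and 433 in P10, and 506 and 499 in P320. All 14 T libraries were above the higher C library, and P10 was below the lower. In T20 31 of the 74 peaks were called and all 31 were gained (41.9%, where 11.2% of all peaks were called gained), in T320 20 were gained and 9 lost (39.2% called, where 30.5% of all peaks were), in P10 4 were gained and 18 lost (12.8% of all peaks were called lost), and in P320 2 were gained and 5 lost (9.46%, where 11.8% of all were). T10 exceeded P10 at 38 of the 41 RAD51B peaks called, where 17.8% of all peaks were called higher in T10, and with the window shift removed at 24 of 32. The other peaks of the RAD51B window moved together too, by a median of 0.72 in T20 beside 0.78 for the gene's own peaks. With the median shift of all peaks in the window removed, T20 gave 11 gained and 11 lost. That median takes in the gene's own 74 peaks beside 182 others, so part of their own change is removed with it.

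Single RAD51B peaks went beyond the window. The peak 527 kb into the gene (chr14:68349525-68351050) read 2.63 and 1.56 CPM in C, 9.3 and 7.37 in T5, 21.6 and 31.2 in T20, 3.85 and 5.11 in T320, 0.441 and 0.349 in P10, and 0.388 and 1.0 in P320. It was highest in T20 (3.71 log2, and 3.05 with the window shift removed) and had come down by T320 (1.17 ± 0.4, adjusted p = 0.025), and T10 exceeded P10 by 5.29 ± 0.46 (39.2-fold, adjusted p = 5.3e-07). The peak 188 kb in (chr14:68010999-68012757) read 1.4 and 1.27 CPM in C, 4.45 and 7.44 in T320 and 0.176 and 0.52 in P320 (T320 against P320 4.10 ± 0.44, adjusted p = 1.1e-06). The peak 198 kb in (chr14:68020703-68021769) read 1.23 and 1.41 in C and between 4.37 and 8.92 in all T libraries, while P10 and P320 stayed between 0.78 and 1.24. A peak 281 kb in (chr14:68104527-68105010) was gained in T320 (1.83 ± 0.39, adjusted p = 0.0011), P10 (2.12) and P320 (1.84 ± 0.39, adjusted p = 0.0028) alike. A peak 154 kb in (chr14:67977040-67978126) was lost in the same 3, from 2.95 and 4.81 CPM in C to 1.37 and 2.33 in T320, 0.617 and 1.0 in P10 and 1.16 and 1.15 in P320.

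**Figure D5:**
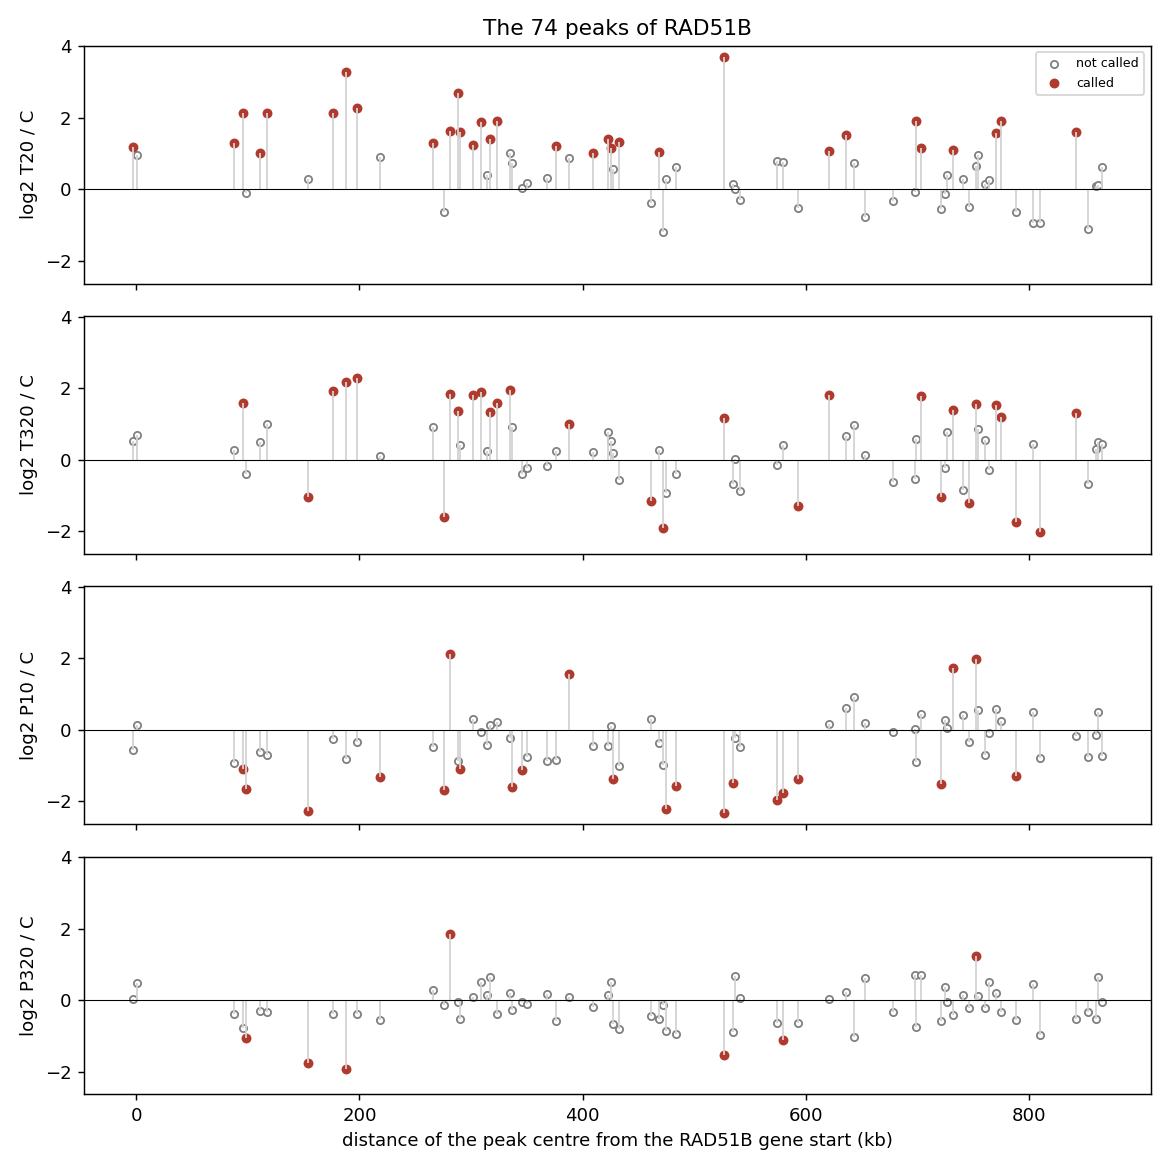
Log2 fold change against C of the 74 RAD51B peaks (vertical) by distance of the peak centre from the gene start in kb (horizontal), in T20, T320, P10 and P320. Filled red points are called and open points are not. In T20 all 31 filled points lie above 0, in T320 20 lie above and 9 below, and in P10 4 above and 18 below.

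Across the 7 adapted doses, few of these peaks followed the dose itself. A slope was called at an adjusted p under 0.05 and at least 0.25 log2 units per doubling, and 6 of the 204 peaks met this (2.94%, where 5.72% of all peaks did), 4 rising and 2 falling. None was at a gene start, where 1.17% of all start peaks were called and 4.59% passed the adjusted p alone. The 3 steepest rises were the ATM peak 101 kb in (0.39 ± 0.06 per doubling, adjusted p = 0.0063), WRN peak 1 (0.39 ± 0.1, adjusted p = 0.032) and a RAD51B peak 335 kb in (0.35 ± 0.1, adjusted p = 0.042). The falls were the GEN1 peak 26.6 kb in (-0.62 ± 0.14, adjusted p = 0.022) and a RAD51B peak 788 kb in (-0.26). The call at 335 kb did not hold without T5 (0.28), T10, T20 (0.33 each) or T80 (0.30), without either replicate (0.41 and 0.22) or with TMM factors from gene-start peaks (0.32). The one at 788 kb did not hold without T160 (-0.24), T320 (-0.23) or replicate 2 (-0.16), and the ATM slope was not called without T320 (0.32). Among the adapted populations the WRN peak was called only in T320, and without T320 its slope was 0.09 and 1 peak in all was called. Without T5 the GEN1 slope was -0.11.

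Outside the 38, another 45 genes of the same pathways were read at their start peaks, which all 45 had. In T320 against C 2 were called, both gained (11.9% of all start peaks were called), and 10 passed the adjusted p, 5 up and 5 down (31.5% of all did). ATRIP, the partner of ATR, rose from 7.92 ± 0.404 (SD, n = 2) to 16.1 ± 3.21 CPM (1.02 ± 0.19, adjusted p = 0.00025), and BABAM2, of the BRCA1-A complex, fell from 12.9 ± 1.94 to 6.93 ± 0.595 (-0.89 ± 0.21, adjusted p = 0.002). In P320 3 were called (15.8% of all) and 10 passed, all up (32.0% of all rose), led by RPA1, the large subunit of the single-strand binding protein (18.1 ± 0.368 CPM, 1.32 ± 0.21, adjusted p = 0.00036), and ATRIP (0.98 ± 0.18, adjusted p = 0.0013). Between T320 and P320 16 passed, all lower in T320, where 39.7% of all start peaks were lower, with RPA1 (-1.51 ± 0.21, adjusted p = 1.4e-05) and ABRAXAS1 (-1.47 ± 0.24, adjusted p = 6.3e-05) at the smallest p.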

How the data were processed

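Counts per consensus peak were deposited by the authors as a table of raw counts, and the peak starts are printed as that table gives them. Per the submitters' processing notes, the reads went through Bowtie2 and Trim Galore, SAMtools and Picard, then DESeq2, deepTools (3.1 and 3.5.1), HOMER 4.1 and MACS2, in an order not stated, on hg38. Their settings are not given in the sources used here. Of 28 samples, 8 (T320_nodrug, T320_drug, T320W_nodrug and T320W_drug) had no column and were not analysed here. All 20 libraries entered edgeR 4.0.16 (quasi-likelihood, robust, TMM, no replicate block), whose expression filter removed no peak. P-values were Benjamini-Hochberg adjusted over all 105048 peaks, and ± after a log2 value is the standard error. CPM use TMM-scaled library sizes. Gene positions came from the RefSeq table for GRCh38, and for the 5 genes without a strand (NBN, DNA2, RAD54B, WRN, FANCI) either gene end counted as a start. Where a gene had several start peaks, the one with the highest mean CPM stands for it by rule. Peaks named were the largest called changes at 2 CPM or more without overlap between groups (6 each way in T320 against C, P320 against C and T320 against P320, 2 each way elsewhere, 3 for the trend), the start peaks of 12 listed genes, and in each role group the start peak of smallest p; others were picked after their values were seen. The members, lists and rules were chosen with earlier results of these data known. The procedure was tested on simulated data. Replicate numbers, whose meaning the labels do not give, were checked by the correlation of same-numbered libraries' deviations from their group means. All 28 pairs among the C and T groups exceeded 0.1 (0.174 to 0.587), and none of the 17 with a P group did (-0.0955 to -0.000317). Alternatives covered scaling, filter, fold minimum, DESeq2 1.42.0, a replicate block and leaving out libraries. Some items are not reported here.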

Additional observations from a re-analysis of the deposited data

Results flagged for a closer look

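At 7 comparisons of peaks, the adapted population stood above C and the persister population below it, each past the test. They were picked by that rule, so an adapted level above the persister level was fixed in advance. The edgeR differences below give only its size. The share of all peaks that meet the same rule is not given here. For T320 against P320 the difference was 5.10 log2 at the CHEK2 peak 8.93 kb upstream, 4.42 at the ATM peak 101 kb into the gene, 4.10 at the RAD51B peak 188 kb in and 2.71 at the RAD51B peak 527 kb in. The P320 loss at that last peak (-1.54) was not called without P320 replicate 1 (-0.96) or C replicate 1 (-1.16). For T10 against P10 it was 5.29 at the same RAD51B peak 527 kb in, 2.51 at another RAD51B peak and 2.30 at the BRIP1 peak 47.1 kb in. The P libraries have no named sort, so sort and population cannot be told apart in any of them.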

How the results depend on the processing

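With 2 libraries per group, 1 library decides many calls. Dropping each library in turn gave 5 to 16 called peaks in T5, 18 to 41 in T10, 30 to 60 in T20, 40 to 59 in T40, 33 to 56 in T80, 42 to 55 in T160, 42 to 61 in T320, 31 to 46 in P10, 6 to 19 in P320, 50 to 71 in T320 against P320, 49 to 82 in T10 against P10, 7 to 13 in P320 against P10 and 3 to 5 in the dose trend. The libraries that moved a count by over 1.5 times were T5 replicate 1 (8), T5 replicate 2 (7) and C replicate 2 (5) in T5, T10 replicate 2 (18), T20 replicate 2 (30), T80 replicate 2 (33), P320 replicate 1 (6) and C replicate 1 (10) in P320, P320 replicate 1 (7) and replicate 2 (9) in P320 against P10, and replicate 1 of the trend (3). The trend gave 3 calls without T10, 3 without T80, 10 without T160 and 1 without T320. With no fold or slope minimum T5 had 25 calls, T10 50, T20 85, T80 81, T320 82 and P10 61, with 32 in P320, 91 in T320 against P320, 31 in P320 against P10 and 12 in the trend. Those are of the 204 member peaks. Of all 105048 peaks, 13700, 27108, 37070, 39306, 44240, 34775, 19961, 49704, 21105 and 11423 passed, in the same order. TMM factors from gene-start peaks gave 46 calls in P320, where 23.8% of all peaks were called. The fit with the replicate block gave 55 calls in T320, 21 in P320 and 56 in T320 against P320, and it changed no called gain or loss of a named peak. Where a P group is compared, same-numbered libraries did not deviate together, and the block moved the start peaks past the adjusted p from 11 to 19 in T320 against P320, from 6 to 9 in P320 and from 8 to 26 in P320 against P10. Of all start peaks 59.8%, 47.6% and 39.1% passed with the block in these comparisons. Of the values of named peaks under the alternatives, 708 of those called kept their call and direction and 71 lost the call, and of those not called 415 stayed so, 12 became called and 43 changed sign.

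The start-peak values that changed sign were none of them called, and the cause was not tested. For P320 against C with gene-start TMM they were BRCA1 -0.28, BRCA2 -0.43, PALB2 -0.26, BARD1 -0.39, RAD51B -0.03, RAD51C -0.47, POLQ -0.27, FANCI -0.28, CHEK2 -0.27, RBBP8 -0.03, WRN -0.11 and RAD52 -0.17. Total-count scaling gave BRCA2 -0.01 and RAD51C -0.06, and the window offset ATM 0.18. Dropping each library in turn moved BRCA2 between -0.14 and 0.29, BARD1 between -0.19 and 0.44, RAD51C between -0.14 and 0.2, XRCC2 between -0.29 and 0.05, ATM between -0.25 and 0.24, FANCD2 between -0.08 and 0.05, POLQ between -0.01 and 0.49 and CHEK2 between -0.0 and 0.48. For T320 against C the window offset gave PALB2 0.03, BARD1 0.39, XRCC3 -0.01 and GEN1 0.11, and dropping each library gave BARD1 -0.4 to 0.23, XRCC3 -0.23 to 0.65 and ATM -0.41 to 0.08. For T320 against P320, gene-start TMM gave BARD1 0.24, RAD51D 0.08, XRCC2 0.07 and ATM 0.29, the window offset gave RAD51B -0.22 and XRCC2 0.0, and dropping each library gave RAD51B -0.03 to 0.44 and ATM -0.35 to 0.01.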
